A study of Mus musculus with 12 samples.

Results

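The MHC class II genes and their transactivator Ciita were examined in CD8+ T cells after EZH2 inhibition. The group held 10 genes, listed by symbol: H2-Aa, H2-Ab1, H2-Eb1, Cd74, H2-DMa, H2-DMb1, H2-DMb2, H2-Oa, H2-Ob and Ciita. They were chosen by symbol as antigen presentation genes that are foreign to the T cell lineage, with their counts in EZH2i and DMSO and the difference between these groups already known. The levels and fold changes that chose them are therefore given as a description, and where a member is said to be called in the fit over all genes, nothing is supported by it. All 10 were among the 24421 gene symbols measured, and all 10 passed the filter on low counts, which 11727 symbols passed. RNA-seq was compared between 6 libraries of CD8+ T cells labelled EZH2 inhibited (EZH2i) and 6 libraries labelled DMSO control (DMSO), DMSO being the usual solvent of such compounds. Both groups were spleen cells of C57BL/6 mice, a common inbred strain, with no engineered allele in the labels. Which inhibitor was used, at what dose and for how long, and the age of the mice and the purity of the cells, are not stated in the labels. Nothing in the labels ties a library to its own mouse or culture, and p-values then measure nothing but the variation among these libraries, some or all of which may be technical.

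MHC class II molecules are heterodimers of an alpha and a beta chain that display peptides from endosomes to CD4+ T cells. Dendritic cells, B cells and macrophages make them constitutively, and mouse T cells are known for making little. The invariant chain encoded by Cd74 fills the groove of new class II dimers, the H2-DM heterodimer exchanges its remnant for other peptides, and the H2-DO heterodimer inhibits H2-DM. Ciita is a coactivator that does not bind DNA itself and switches these genes on through factors bound at their promoters. EZH2 is the methyltransferase of Polycomb repressive complex 2 (PRC2), which marks silent genes with trimethylated histone H3.

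Library totals were 19610258 to 31206228 reads in EZH2i and 17215483 to 28092434 reads in DMSO. Levels are CPM, read counts relative to the library size, scaled by TMM, a normalisation that assumes that most genes do not change. A gene was called when its Benjamini-Hochberg adjusted p in edgeR's quasi-likelihood test was under 0.05. By this rule 1557 genes were higher and 709 lower in EZH2i, 19.3% of those tested. The libraries numbered 6 in each group stood apart together. Without both of them 5270 genes were called, and with the replicate number as a block 5741 (49.0% of those tested). Cd8a, the CD8 alpha chain, had 885 ± 47.3 CPM in EZH2i and 1091 ± 31.1 CPM in DMSO (SD, n = 6 each), whereas all libraries of a group together held 14 reads of Cd4 in EZH2i and 11 in DMSO. Ezh2 mRNA had 234 ± 26.6 CPM in EZH2i and 278 ± 29.4 CPM in DMSO (SD, n = 6 each, log2 fold change -0.25, adjusted p = 0.0833 in edgeR's quasi-likelihood test, and 0.000757 with the block). Its mRNA level does not measure whether the enzyme was inhibited.

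Of the 10 genes, 7 were called higher in EZH2i and 0 lower: the classical chains H2-Aa, H2-Ab1 and H2-Eb1, the invariant chain Cd74, the H2-DM beta chains H2-DMb1 and H2-DMb2, and Ciita. For these 7 every EZH2i library lay above every DMSO library. H2-DMa, H2-Oa and H2-Ob were not called. Over all tested genes 13.3% were called higher and 6.05% lower (24.7% higher with the block), and 7.5% had every EZH2i library above every DMSO library. Among the 2183 tested genes within the mean CPM range of the 7 called members, 29.5% were called higher and 17.8% had such separate groups. The same 7 members were higher in EZH2i in all 6 same-numbered pairs of libraries, as were 21.2% of all tested genes. The median log2 fold change was 1.11 over the 10 members and -0.01 over all tested genes. These counts describe the contrast by which the genes were chosen.

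**Figure D1:**
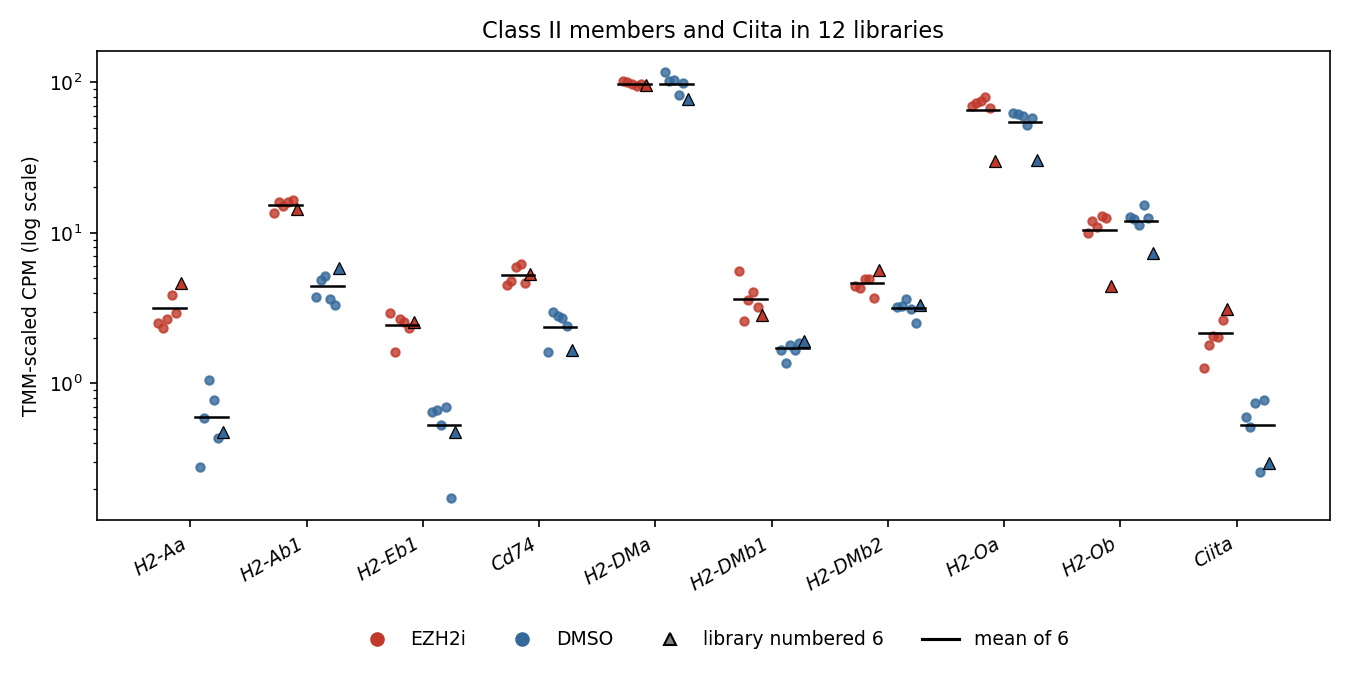
TMM-scaled CPM (log axis) of the 10 genes in each library, with EZH2i in red left of DMSO in blue. Circles and triangles are single libraries, triangles are the libraries numbered 6, and bars are means of 6. The EZH2i points of H2-Aa, H2-Ab1, H2-Eb1, Cd74, H2-DMb1, H2-DMb2 and Ciita lie above all DMSO points of the same gene, and those of H2-DMa, H2-Oa and H2-Ob overlap them.

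The classical chains form the peptide-binding surface molecules, H2-Aa with H2-Ab1 in I-A and H2-Eb1 as the beta chain of I-E. H2-Ab1 (GRCm38 chr17:34257689-34269419, plus strand) was at 13.5 CPM in the lowest, 15.5 in the median and 16.6 in the highest EZH2i library, against 3.33, 4.32 and 5.84 CPM in DMSO. Its log2 fold change was 1.79 with an SE of 0.140. The groups were far apart, and no library of either group strayed from its own. H2-Aa (chr17:34282744-34287823, minus strand) was at 2.33, 2.81 and 4.64 CPM in EZH2i, against 0.277, 0.533 and 1.05 CPM in DMSO. Its log2 fold change of 2.39, with an SE of 0.291, was the largest of the 10. Library 6 was the highest EZH2i library for this gene. H2-Eb1 (chr17:34305867-34316674, plus strand) was at 1.61, 2.55 and 2.93 CPM in EZH2i, against 0.173, 0.586 and 0.702 CPM in DMSO, a log2 fold change of 2.18 with an SE of 0.268. The groups of H2-Aa and H2-Eb1 did not overlap either, although 519 and 388 reads in EZH2i against 81 and 73 reads in DMSO carry these values. No library held 0 reads of any of the 10 genes.

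Summed over H2-Aa, H2-Ab1 and H2-Eb1, the EZH2i libraries held 19.0 to 22.4 CPM and the DMSO libraries 3.93 to 6.79 CPM. The sums varied little within a group compared with the gap between the groups, and H2-Ab1 supplied most of them. H2-Eb2, a less studied I-E type beta chain gene next to H2-Eb1, had 31 reads in all EZH2i libraries together and 16 in all DMSO libraries, 0.192 ± 0.136 and 0.119 ± 0.133 CPM (SD, n = 6 each), and was too low to be tested. The I-E alpha chain is known to be defective in C57BL/6 mice, and the symbol H2-Ea-ps had 0 reads in all 12 libraries.

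Cd74 (chr18:60803848-60812652, plus strand) encodes the invariant chain, a chaperone of class II dimers and a receptor component for the cytokine MIF. Its levels were 4.50, 5.04 and 6.25 CPM in the lowest, median and highest EZH2i library, against 1.62, 2.58 and 2.98 CPM in DMSO. The log2 fold change was 1.14 with an SE of 0.175. All EZH2i libraries were above all DMSO libraries, with a smaller fold change than for the classical chains. Per kilobase of exon, Cd74 was at 3.12 ± 0.432 CPM in EZH2i and 1.41 ± 0.352 CPM in DMSO (SD, n = 6 each), below H2-Ab1 at 5.94 ± 0.446 CPM in EZH2i and within the spread of H2-Ab1 at 1.73 ± 0.390 CPM in DMSO.

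H2-DM is built from the alpha chain H2-DMa and either of the beta chains H2-DMb1 and H2-DMb2. H2-DMb1 (chr17:34153072-34160230, plus strand) was at 2.58, 3.40 and 5.56 CPM in the lowest, median and highest EZH2i library, against 1.36, 1.73 and 1.91 CPM in DMSO, a log2 fold change of 1.09 with an SE of 0.192. H2-DMb2 (chr17:34143307-34151555, plus strand) was at 3.71, 4.68 and 5.70 CPM in EZH2i, against 2.50, 3.26 and 3.63 CPM in DMSO, a log2 fold change of 0.56 with an SE of 0.133. For H2-DMb2 the lowest EZH2i library stood just above the highest DMSO library. H2-DMa (chr17:34119541-34139101, plus strand) was at 95.0, 97.0 and 102 CPM in EZH2i, against 77.8, 101 and 117 CPM in DMSO. The EZH2i libraries lay inside the DMSO range, and the log2 fold change was 0.02 with an SE of 0.0894.

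The alpha and beta chains of H2-DM thus had different levels. Per kilobase of exon, H2-DMa was at 28.4 ± 0.839 CPM in EZH2i and 28.1 ± 4.15 CPM in DMSO (SD, n = 6 each). The ratio of H2-DMa to the summed beta chains, per length, was 5.09, 5.66 and 7.28 in the lowest, median and highest EZH2i library, against 7.42, 10.2 and 11.9 in DMSO, with no overlap. The ratio of H2-DMb1 to H2-DMb2 was 0.520, 0.795 and 1.31 in EZH2i, against 0.432, 0.542 and 0.770 in DMSO, with overlap. The beta chain genes are close copies. Of the 1604 stretches of 75 bases (the read length in the labels) in H2-DMb1 exons, 15.8% also occur in H2-DMb2, which makes their separate values uncertain. H2-DMa shares 7.46% of its stretches with Brd2, which lies over it on the other strand.

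H2-DO is built from H2-Oa and H2-Ob and restrains H2-DM. H2-Oa (chr17:34092340-34095234, plus strand) was at 29.9, 71.3 and 79.6 CPM in the lowest, median and highest EZH2i library, against 30.5, 58.9 and 62.4 CPM in DMSO, a log2 fold change of 0.28 with an SE of 0.221. Library 6 was the lowest of its group in both groups. The other 5 EZH2i libraries, at 67.6 CPM or more, lay above all DMSO libraries. H2-Oa was called higher with the replicate number as a block (log2 fold change 0.26) and without both libraries numbered 6 (0.32), and also when EZH2i library 6 alone was left out (0.43). It shares 11.8% of its stretches with the antisense gene BC051537, which was at 0.603 ± 0.131 CPM in EZH2i and 0.979 ± 0.353 CPM in DMSO (SD, n = 6 each).

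H2-Ob (chr17:34238903-34254414, plus strand) was at 4.46, 11.4 and 12.9 CPM in EZH2i, against 7.32, 12.5 and 15.3 CPM in DMSO. The groups overlapped, the log2 fold change was -0.19 with an SE of 0.232, and it was not called with the block either. In each of the 6 same-numbered comparisons the EZH2i library was the lower one, by 0.01 to 0.71 on the log2 scale, the widest gap being at number 6. The ratio of H2-Oa to H2-Ob per length was 20.6, 24.6 and 26.7 in EZH2i, against 13.1, 18.1 and 20.5 in DMSO. The ranges nearly touched without overlapping, and library 6 held neither end of either range.

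Ciita (chr16:10480059-10528418, plus strand) was at 1.26, 2.04 and 3.13 CPM in the lowest, median and highest EZH2i library, against 0.259, 0.558 and 0.777 CPM in DMSO. Its log2 fold change was 2.02 with an SE of 0.298. The lowest EZH2i library lay above the highest DMSO library. The value rests on 355 reads in EZH2i and 71 reads in DMSO. By number the difference was smallest at 0.98 on the log2 scale and largest at 3.08, in the libraries numbered 6. Without both of those it was 1.79, and Ciita was still called. It shares 0.765% of its stretches of 75 bases with Dexi, which lies on the other strand.

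**Figure D2:**
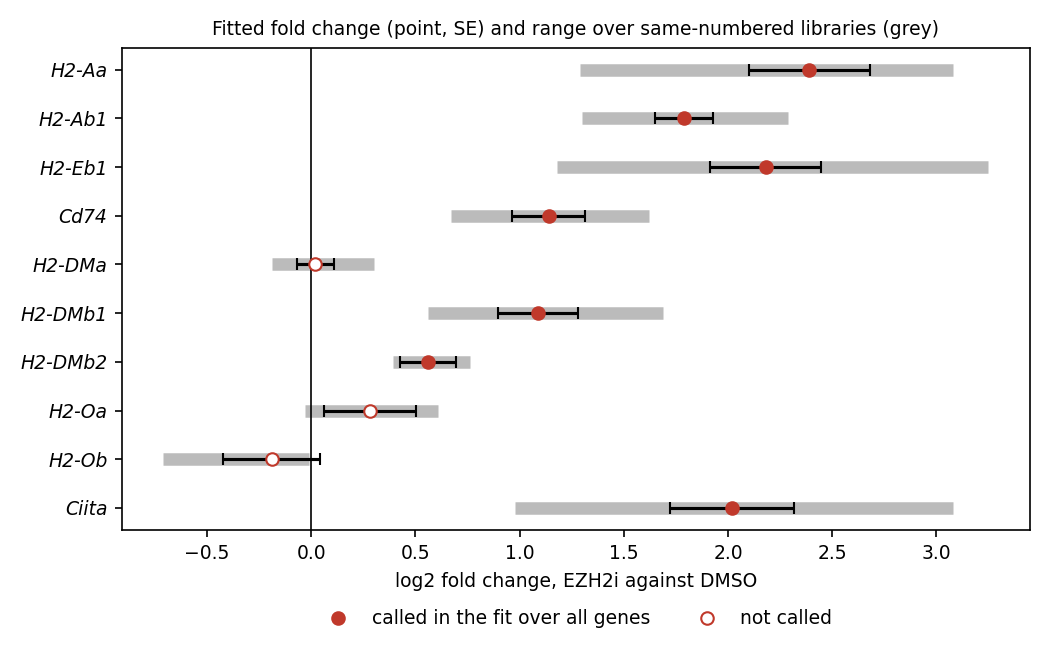
Log2 fold change of each gene, EZH2i against DMSO, as fitted (point) with its SE (bar), and the range of the differences between same-numbered libraries (grey). Filled points are genes called in the fit over all genes. The 7 called genes have grey ranges wholly above 0, and those of H2-DMa, H2-Oa and H2-Ob reach below 0.

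The order of levels per kilobase of exon was led by H2-Oa in both groups, at 46.7 ± 12.8 CPM in EZH2i and 38.4 ± 8.61 CPM in DMSO, followed by H2-DMa (SD, n = 6 each). The bands of 1 SD either side of the mean of H2-Oa and H2-DMa were separate in EZH2i and overlapped in DMSO. Ciita was the lowest in both, at 0.225 ± 0.0683 CPM in EZH2i and 0.0557 ± 0.0228 CPM in DMSO. In EZH2i the middle ran H2-Ab1, Cd74, H2-DMb2, H2-DMb1, H2-Ob, H2-Eb1 and H2-Aa. In that run the bands of neighbours from Cd74 on overlapped, and H2-Ab1 stood clear above Cd74. In DMSO the middle ran H2-Ob, H2-DMb2, H2-Ab1, Cd74, H2-DMb1, H2-Eb1 and H2-Aa. The bands of neighbours overlapped there except for the step between H2-DMb1 and H2-Eb1. Exon lengths are unions over annotated transcripts, which lowers the values of genes with many long variants such as Ciita. In bulk RNA, more cells that express a gene and more RNA per cell cannot be told apart.

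The promoters of the class II genes are shown because Ciita acts through letters they share. The classical X1 box binds the RFX complex, and the Y box binds NF-Y. RefSeq promoter windows (250 bases before to 50 after the start site, build GRCm38.p6) matched 7 of the 10 genes. They were searched on both strands for an X1 core, ACNGATG, and an NF-Y box, CCAAT, which reads ATTGG on the other strand. No match overlapped another. The 150 bases before the start site follow for 6 genes on chromosome 17, written along the strand of the gene, with the X1 core and the NF-Y box in capitals.
H2-Eb1, chr17:34305717-34305866, plus strand: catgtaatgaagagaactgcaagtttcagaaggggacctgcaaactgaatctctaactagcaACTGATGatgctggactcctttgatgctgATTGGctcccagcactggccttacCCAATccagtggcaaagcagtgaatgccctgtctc
H2-DMb1, chr17:34153041-34153190, plus strand: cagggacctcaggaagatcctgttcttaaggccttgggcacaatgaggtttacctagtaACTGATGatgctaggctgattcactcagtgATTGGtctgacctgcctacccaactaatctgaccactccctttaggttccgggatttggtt
H2-DMb2, chr17:34145099-34145248, plus strand: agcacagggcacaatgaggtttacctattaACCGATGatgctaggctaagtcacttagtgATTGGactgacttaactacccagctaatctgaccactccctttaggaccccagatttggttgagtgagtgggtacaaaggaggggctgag
H2-Aa, chr17:34287824-34287973, minus strand: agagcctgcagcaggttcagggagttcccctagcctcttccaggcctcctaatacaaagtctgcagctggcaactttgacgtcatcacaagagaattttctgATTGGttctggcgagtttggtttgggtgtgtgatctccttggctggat
H2-Oa, chr17:34092229-34092378, plus strand: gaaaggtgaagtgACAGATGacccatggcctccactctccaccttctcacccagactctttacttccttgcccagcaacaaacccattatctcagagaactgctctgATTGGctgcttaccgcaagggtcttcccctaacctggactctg
H2-Ob, chr17:34238755-34238904, plus strand: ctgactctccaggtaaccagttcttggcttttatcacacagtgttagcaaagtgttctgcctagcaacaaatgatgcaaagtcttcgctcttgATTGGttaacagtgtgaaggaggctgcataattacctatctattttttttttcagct

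An X1 core followed within 25 bases by an NF-Y box was in the windows of H2-Eb1, H2-DMb1 and H2-DMb2. Over all 32851 promoter windows, 0.426% held this arrangement, while 9.85% held an X1 core and 37.4% an NF-Y box. In H2-Eb1 the X1 core began 88 bases and the NF-Y boxes 59 and 35 bases before the start site, and in H2-DMb1 the starts were 91 and 61 bases before it. In H2-DMb2 they were 120 and 90 bases before it. In H2-Aa the X1 core began 232 bases before the start site, outside the stretch printed, and the NF-Y box 48 bases before it. H2-Oa held both, 137 and 43 bases before the start site, too far apart to count as the arrangement. H2-Ob had a match to the NF-Y box alone. Its stretch holds acaaatg ahead of that box, close to ACNGATG but not a match. H2-DMa has a pair of windows in the table. The first held neither motif and the second an NF-Y box.

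The 3 genes with the arrangement had log2 fold changes of 2.18, 1.09 and 0.56, and H2-Aa, without these letters so arranged, had 2.39. H2-DMa, H2-Oa and H2-Ob, which were not called, also had no match to it. No window held an E-box, CACGTG, which 7.15% of all windows hold. The windows of H2-Aa, H2-Eb1, H2-DMb1, H2-DMb2, H2-Oa and H2-Ob held 0 to 3 CG dinucleotides, and those of H2-DMa held 29 and 0, beside a median of 7 over all windows. A match describes letters only and does not show binding. Boxes that depart from ACNGATG were not counted, so a window without a match may still hold an X1 box. The matches are therefore not read against the fold changes.

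**Figure D3:**
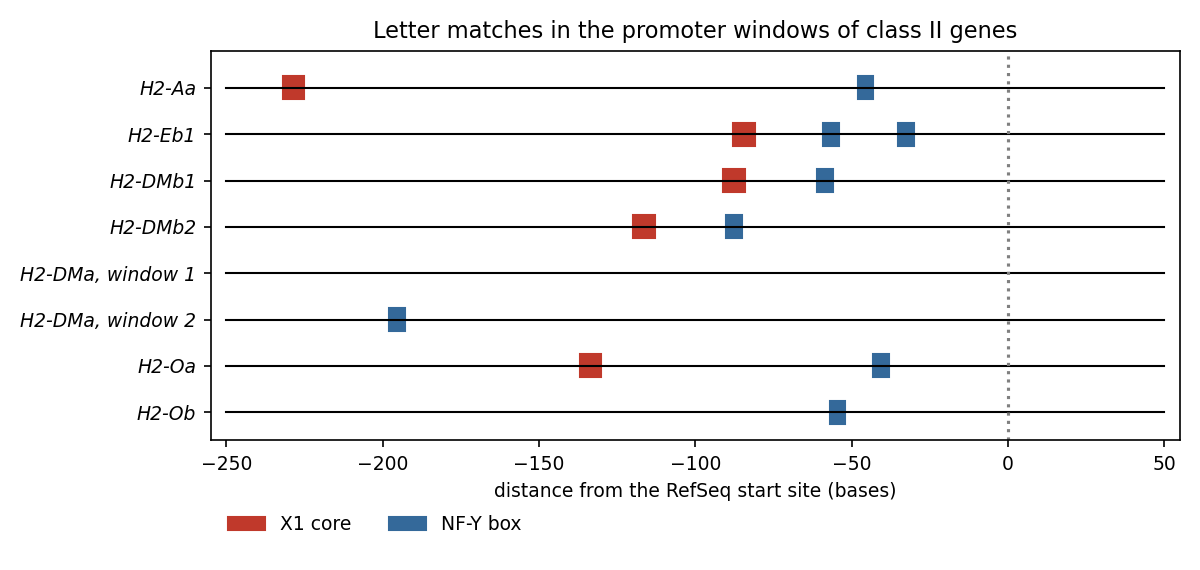
Position of X1 cores (red) and NF-Y boxes (blue) in the RefSeq promoter windows of 7 class II genes, as distance from the start site in bases, drawn to scale. The X1 core precedes an NF-Y box closely in H2-Eb1, H2-DMb1 and H2-DMb2, and lies farther from it in H2-Aa and H2-Oa.

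Other genes that lie between the class II genes on chromosome 17 had log2 fold changes near 0. The 5 other genes between H2-Oa and H2-Eb1 were all tested: Brd2, a chromatin reader, the immunoproteasome subunits Psmb8 and Psmb9, and the peptide transporter subunits Tap1 and Tap2, which serve class I presentation. The values ran from -0.25 to 0.09, with 0 higher and 1 lower (0 and 3 with the block). The gene lower without the block was Brd2, with 327 ± 21.8 CPM in EZH2i and 388 ± 33.5 CPM in DMSO (SD, n = 6 each, log2 fold change -0.25, adjusted p = 0.0282 in edgeR's quasi-likelihood test). Its call was lost in 4 of 18 alternatives. In a wider list of 13 genes of the region that are not class II genes, 11 were tested, of which 1 was higher and 1 was lower. The higher one was Col11a2, a collagen chain gene, with 29.7 ± 5.11 CPM in EZH2i and 15.1 ± 3.54 CPM in DMSO (SD, n = 6 each, log2 fold change 0.98, adjusted p = 0.000766 in edgeR's quasi-likelihood test). With the replicate number as a block, 1 was higher and 5 were lower. Of all tested genes 13.3% were called higher and 6.05% lower, and 49.0% were called with the block.

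**Figure D4:**
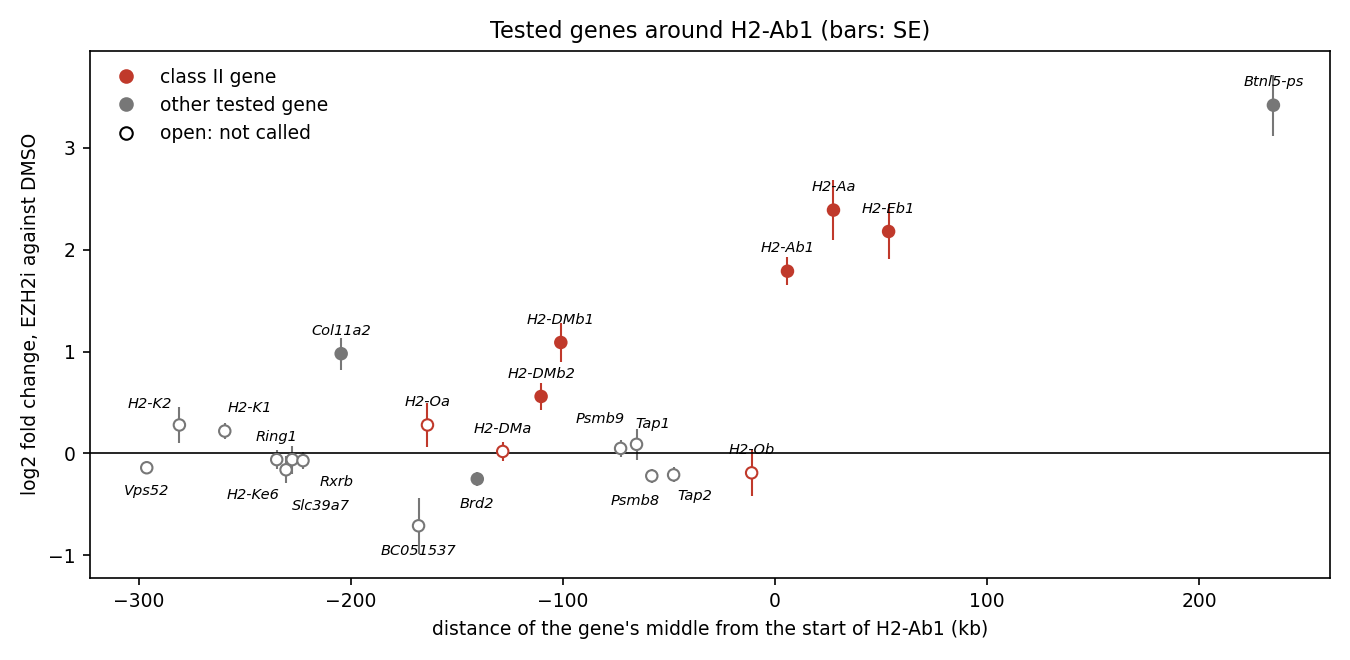
Log2 fold change, EZH2i against DMSO, of each tested gene within 300 kb of the start of H2-Ab1, against the distance of the gene's middle from that start in kilobases, with SE bars. Class II genes are red, other genes grey, and open points were not called. H2-Ab1, H2-Aa and H2-Eb1 sit at 1.79 to 2.39, and the genes between H2-DMb1 and H2-Ob lie near 0. The highest point, at 3.42, is Btnl5-ps, a called gene beyond H2-Eb1 that is not a class II gene.

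The next list holds the factors that assemble at class II promoters. Of 11 transcription factor and coactivator genes tested, 0 were higher and 1 was lower, and their median log2 fold change was 0.04 (2 higher and 4 lower with the block). The share of all tested genes called was 19.3%, and 49.0% with the block. The lower one was Nfyb, an NF-Y subunit, with 58.6 ± 2.63 CPM in EZH2i and 67.0 ± 2.99 CPM in DMSO (SD, n = 6 each, log2 fold change -0.19, adjusted p = 0.0266 in edgeR's quasi-likelihood test). The call of Nfyb was lost in 5 of 18 alternatives. Rfx5, the DNA-binding RFX subunit, had 36.5 ± 7.32 CPM in EZH2i and 26.3 ± 5.97 CPM in DMSO (SD, n = 6 each). Its log2 fold change of 0.47 was not called, with an adjusted p of 0.0934 in edgeR's quasi-likelihood test, and was called with the block (9.88e-06). It was named after its values were seen.

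Several genes that feed into Ciita were higher. The list holds the interferon gamma receptor and its JAK-STAT and IRF relays, which induce Ciita, and Prdm1 and Socs1, which restrain it. Of 12 tested, 5 were higher and 0 lower, and their median log2 fold change was 0.34 (9 higher and 0 lower with the block). The share of all tested genes called higher was 13.3%, and 24.7% with the block. Prdm1, the repressor BLIMP-1, rose to 14.6 ± 2.23 CPM in EZH2i, against 7.32 ± 0.580 CPM in DMSO (SD, n = 6 each, log2 fold change 0.99, adjusted p = 4.08e-05 in edgeR's quasi-likelihood test). Irf8, a lymphoid and myeloid IRF, rose to 97.3 ± 5.37 CPM in EZH2i, against 57.4 ± 6.89 CPM in DMSO (SD, n = 6 each, log2 fold change 0.76, adjusted p = 3.07e-05 in the same test by edgeR). The groups of Prdm1 and of Irf8 did not overlap. Socs1, the feedback inhibitor of JAK signalling, rose to 72.0 ± 27.0 CPM in EZH2i, against 36.8 ± 10.4 CPM in DMSO (SD, n = 6 each, log2 fold change 0.97, adjusted p = 0.0143 in the same test by edgeR), with overlap. Ifngr2, the signalling chain of the interferon gamma receptor, rose to 31.7 ± 7.28 CPM in EZH2i, against 18.5 ± 2.54 CPM in DMSO (SD, n = 6 each, log2 fold change 0.78, adjusted p = 0.00429 in the same test by edgeR). Spi1, a myeloid and B cell factor, had 9 reads in all EZH2i libraries together and 5 in all DMSO libraries.

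Of 11 tested genes of endosomal peptide processing, 2 were higher, 2 were lower and the others were not called, and their median log2 fold change was -0.06 (3 and 3 with the block). The shares of all tested genes were 13.3% higher and 6.05% lower. With the block they were 24.7% higher and 49.0% called in either direction. The proteases Lgmn and Ctsl were higher. Lgmn, legumain, had 1.65 ± 0.367 CPM in EZH2i and 0.786 ± 0.246 CPM in DMSO (SD, n = 6 each, log2 fold change 1.05, adjusted p = 0.00626 in edgeR's quasi-likelihood test). Ctsl, cathepsin L, had 19.7 ± 4.83 CPM in EZH2i and 10.3 ± 2.54 CPM in DMSO (SD, n = 6 each, log2 fold change 0.93, adjusted p = 0.00805 in edgeR's quasi-likelihood test). Ifi30, the lysosomal thiol reductase GILT, fell to 27.4 ± 4.68 CPM in EZH2i, against 45.2 ± 9.99 CPM in DMSO (SD, n = 6 each, log2 fold change -0.72, adjusted p = 0.00416 in edgeR's quasi-likelihood test). Ctsz, cathepsin Z, was at 48.5 ± 8.43 CPM in EZH2i and 70.1 ± 20.3 CPM in DMSO (SD, n = 6 each, log2 fold change -0.53, adjusted p = 0.047 in edgeR's quasi-likelihood test), a call that was lost in 12 of 18 alternatives. Ctss, cathepsin S, which trims the invariant chain in dendritic and B cells, was at 148 ± 11.4 CPM in EZH2i and 160 ± 11.8 CPM in DMSO, a log2 fold change of -0.11 that was not called.

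Of the 5 tested costimulation genes, 1 was higher and 0 lower (4 higher with the block). It was Cd274, PD-L1, with 36.2 ± 5.39 CPM in EZH2i and 26.7 ± 3.71 CPM in DMSO (SD, n = 6 each, log2 fold change 0.44, adjusted p = 0.025 in edgeR's quasi-likelihood test). The call of Cd274 was lost in 3 of 18 alternatives. The share of all tested genes called higher was 13.3%, and 24.7% with the block. Cd40, typical of B cells and dendritic cells, had 3 reads in EZH2i and 1 in DMSO. Of the 3 tested genes for the Cd74 ligand and its coreceptors, 1 was higher (2 with the block). It was Cd44, with 176 ± 33.0 CPM in EZH2i and 130 ± 17.1 CPM in DMSO (SD, n = 6 each, log2 fold change 0.45, adjusted p = 0.0357 in edgeR's quasi-likelihood test), a call that was lost in 9 of 18 alternatives. Over all tested genes 19.3% were called in either direction, and 49.0% with the block. Of the 4 PRC2 core genes, 0 were called in either direction (1 higher and 3 lower with the block). Eed, the subunit that reads the PRC2 mark, had the smallest p, with 61.3 ± 6.32 CPM in EZH2i, 72.2 ± 7.87 CPM in DMSO (SD, n = 6 each) and an adjusted p of 0.079 in edgeR's quasi-likelihood test.

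Markers of cells that make class II constitutively were measured beside these genes. Of 66 markers of other cell types, 62 had a symbol in the tables, and 47 were under 1 CPM in every library. Among the 15 that could be tested, 5 were higher and 0 lower (9 and 1 with the block). Of all tested genes 13.3% were called higher (24.7% with the block) and 6.05% lower. The defining B cell markers Ms4a1 and Pax5 were near 0: Ms4a1 had 12 reads in EZH2i and 3 in DMSO over all libraries, and Pax5 had 1 and 3. The 13 measured B cell markers summed to 17.2 to 27.7 CPM in EZH2i libraries and 20.7 to 30.2 CPM in DMSO libraries, mostly from Cd79b. Cd79b was at 18.3 ± 2.15 CPM in EZH2i and 21.8 ± 2.08 CPM in DMSO (SD, n = 6 each), and was called lower with the block alone (adjusted p = 0.00927 in edgeR's quasi-likelihood test). Vpreb3 had 31 reads in EZH2i and 5 in DMSO, and Cr2 had 20 and 4. Cd22, an inhibitory B cell receptor, had 222 reads in EZH2i and 105 in DMSO. Its log2 fold change of 0.84 was not called (adjusted p = 0.05 in edgeR's quasi-likelihood test) and was called with the block (0.0113).

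Of the conventional dendritic cell markers, Itgax and Zbtb46 had the most reads. Xcr1 went the other way, with 10 reads in EZH2i and 20 in DMSO. Flt3 had 6 reads in EZH2i and 4 in DMSO, Clec9a had 2 and 3, and Cd209a and Ccl17 had 0 in all libraries. Itgax, CD11c, had 2.01 ± 0.741 CPM in EZH2i and 0.513 ± 0.339 CPM in DMSO (SD, n = 6 each, log2 fold change 1.91, adjusted p = 0.00726 in edgeR's quasi-likelihood test). Zbtb46, a transcription factor of conventional dendritic cells, was too low to be tested, with 0.573 ± 0.237 CPM (94 reads) in EZH2i and 0.226 ± 0.116 CPM (32 reads) in DMSO (SD, n = 6 each). The 8 markers of conventional dendritic cells summed to 1.24 to 3.77 CPM in EZH2i libraries and 0.179 to 1.66 CPM in DMSO libraries. Of the 13 macrophage and monocyte markers, Csf1r had 2 reads in EZH2i and 1 in DMSO, Adgre1 had 3 and 5, Cd14 had 20 and 2, and C1qa, C1qc, Marco and Mrc1 had 0 throughout. Cd68 had 549 reads in EZH2i and 575 in DMSO (log2 fold change -0.28), and Fcgr3 had 188 and 139 (0.19). Neither was called. The 13 markers summed to 6.72 to 20.3 CPM in EZH2i libraries and 5.18 to 11.9 CPM in DMSO libraries. Itgam, CD11b, was the called gene among them, with 11.6 ± 3.69 CPM in EZH2i and 4.75 ± 1.76 CPM in DMSO (SD, n = 6 each, log2 fold change 1.28, adjusted p = 0.0112 in edgeR's quasi-likelihood test). Over the B cell, conventional dendritic cell and macrophage lists, 21 of 34 measured markers had the higher mean CPM in EZH2i, 7 the lower and 6 were at 0 in both groups. Under 1 CPM in every library were 10 of the 13 B cell, 7 of the 8 dendritic cell and 10 of the 13 macrophage markers. The share of all genes at such low levels with a higher mean in EZH2i was not computed, so no tilt is read from these counts. The part of Itgax, Itgam, Zbtb46 and the other markers that were higher in EZH2i in the class II result was not tested.

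**Figure D5:**
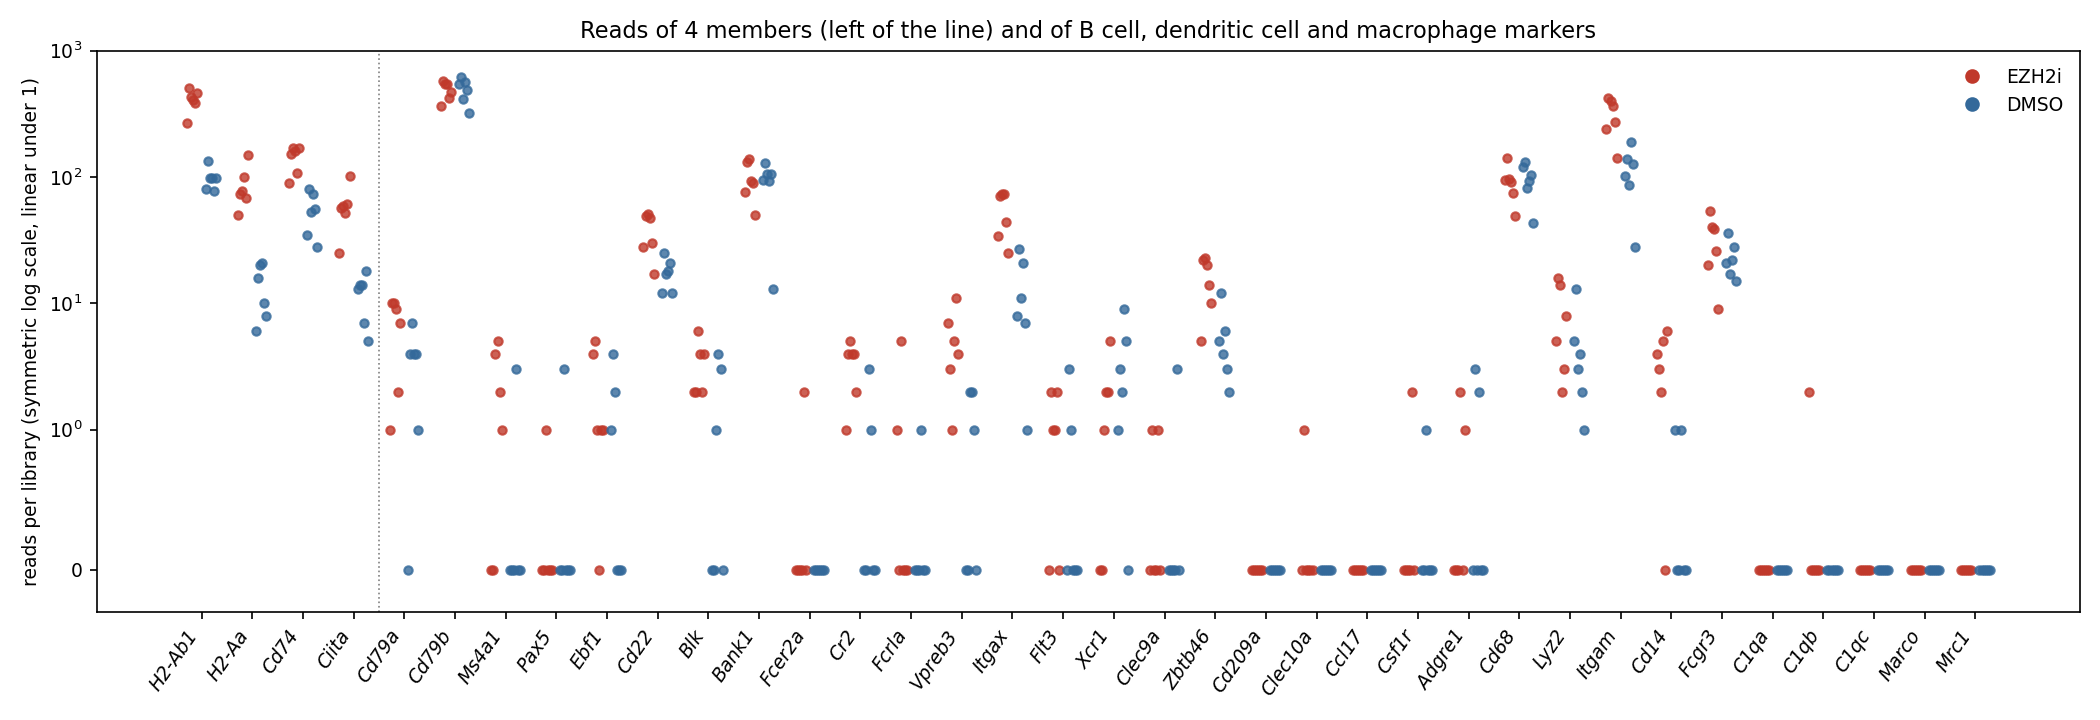
Reads per library (symmetric log axis, linear under 1) of H2-Ab1, H2-Aa, Cd74 and Ciita, left of the dotted line, and of 32 measured markers of B cells, conventional dendritic cells and macrophages, right of it, in the order of the lists. Each point is a library, EZH2i in red left of DMSO in blue. Most markers sit under 20 reads in every library, while Cd79b, Cd22, Bank1, Itgax, Zbtb46, Cd68, Itgam and Fcgr3 lie higher, and of these Itgax and Itgam were called higher in EZH2i.

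The remaining marker lists were mixed. Over 5 plasmacytoid dendritic cell markers the sum was 51.6 to 99.5 CPM in EZH2i libraries and 54.5 to 80.3 CPM in DMSO libraries, nearly all from Bst2, and Siglech had 7 reads in EZH2i and 6 in DMSO. Ccr9, a homing receptor of that list, was not called at a log2 fold change of 2.19 (adjusted p = 0.0564 in edgeR's quasi-likelihood test, and 4.54e-06 with the block). The 4 plasma cell markers summed to 0.648 to 1.61 CPM in EZH2i libraries and 0.0924 to 0.946 CPM in DMSO libraries. Sdc1, CD138, was not called at a log2 fold change of 1.26 (adjusted p = 0.0633 in edgeR's quasi-likelihood test, and 0.0274 with the block). The 5 neutrophil and 5 erythroid markers measured were under 1 CPM in every library.

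Of the 5 NK cell markers, 3 were tested and 2 of these were higher. Klrb1c, NK1.1, rose to 5.10 ± 2.098 CPM in EZH2i, against 0.852 ± 0.356 CPM in DMSO, with no overlap (SD, n = 6 each, log2 fold change 2.59, adjusted p = 8.77e-05 in edgeR's quasi-likelihood test). Eomes, a T-box factor of NK and memory CD8 T cells, had 140 ± 76.9 CPM in EZH2i and 70.5 ± 25.5 CPM in DMSO (SD, n = 6 each, adjusted p = 0.0339 in edgeR's quasi-likelihood test), while Ncr1 had 8 reads in EZH2i and 6 in DMSO. The NK list summed to 468 to 921 CPM in EZH2i libraries and 414 to 606 CPM in DMSO libraries. Zbtb7b, the CD4 lineage factor ThPOK, had 22.2 ± 3.99 CPM in EZH2i and 14.6 ± 1.85 CPM in DMSO (SD, n = 6 each, log2 fold change 0.60, adjusted p = 0.00654 in edgeR's quasi-likelihood test). The 4 markers of CD4 and regulatory T cells summed to 23.8 to 34.8 CPM in EZH2i libraries and 17.4 to 23.0 CPM in DMSO libraries. Of 6 tested genes of CD8 T cell identity, 0 were higher and 3 lower (4 lower with the block): Lck (log2 fold change -0.35, adjusted p = 0.00186), Cd3g (-0.37, adjusted p = 0.0488) and Cd8a (-0.30, adjusted p = 0.00129), all in edgeR's quasi-likelihood test. Of all tested genes 13.3% were called higher and 6.05% lower, and 49.0% were called with the block. The call of Cd3g was lost in 9 of 18 alternatives, and that of Eomes in 6. The part of these genes in the class II result was not tested.

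The genes whose profile over the 12 libraries was most like that of a member were found by the root mean square difference of centred log2 CPM, over 11717 tested genes that are not members. For Cd74 they were Aig1, at a difference of 0.169 log2 units, Smim3 (0.208), the efflux transporter Abcg2 (0.211), the scaffold Homer3 (0.215) and the tetraspanin Tspan9 (0.233). The class II member nearest to Cd74 was H2-DMb2, at 0.420. For H2-Aa they were Vrtn (0.389), the ephrin receptor Ephb2 (0.389), Coro2b (0.435), the vesicular glutamate transporter Slc17a7 (0.445) and Tmem121 (0.451), with H2-Ab1 the nearest member at 0.513. For Ciita they were Tbc1d8 (0.402), the mannosidase Man1c1 (0.417), Klhl30 (0.418), Emid1 (0.440) and Ajuba (0.446), with H2-Ab1 the nearest member at 0.529. The nearest member was picked among far fewer candidates than the 5 genes named, so the distances of both are not compared. Centring removes the mean level of each gene, and the profiles keep the EZH2i contrast by which the members were chosen. All genes also share the depth of these libraries. Likeness is therefore only a description of how genes vary over the libraries, and low counts add noise to it.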

How the data were processed

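Splenic CD8+ T cells were profiled by RNA-seq in 6 EZH2i and 6 DMSO libraries, grouped by the treatment in the labels. The members and the gene lists were chosen with earlier results of these data known. Each library has 1 deposited table of unnormalised counts by gene symbol. Per the submitters' processing notes, the tools of the authors were TopHat2 2.1.1, featureCounts, SAMtools 1.9, Trimmomatic 0.38 and FastQC 0.11.7, and the build was GRCm38 (mm10). Per the labels' protocols, the kit was a stranded mRNA kit and reads were single-end. The annotation, the strand setting and the treatment of multimapping reads are not given in the sources used, so counts of overlapping, antisense and near-identical genes are uncertain.

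In R 4.3.3, genes were filtered with filterByExpr of edgeR 4.0.16, which left 11727. A gene low in one group can pass this filter through the other. This can apply to H2-Aa, H2-Eb1 and Ciita, whose lowest DMSO libraries held 0.277, 0.173 and 0.259 CPM. Libraries were scaled with TMM and tested, two-sided, by edgeR's quasi-likelihood method (with limma 3.58.1) on the group alone, with Benjamini-Hochberg adjustment over all tested genes and a threshold of 0.05. The procedure was tested on simulated counts. The SE is the log2 fold change divided by the square root of its F statistic. Alternatives were other scalings, no filter, DESeq2 1.42.0, a replicate block, leaving out each library, and leaving out both libraries numbered 6.

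Deviations from the group means correlated between same-numbered libraries at r = 0.213, 0.445, 0.286, 0.527, 0.317 and 0.847 for numbers 1 to 6. All were over 0.1, and the numbers were therefore treated as possible pairs in the block and in the same-numbered comparisons. That decision was taken from the data, since the labels state no pairing. The main fit takes the group alone and ignores any pairing. Its calls and p-values are those given unless the block is named. The own number was the best match both ways for 3 of 6 numbers, and without the libraries numbered 6 the correlations of numbers 1 to 5 were 0.223, 0.181, 0.165, 0.341 and 0.037. Counts with the block stand beside the counts they change.

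Genes named were the 10 members, up to 4 called genes of each list with the largest change or else the one with the smallest p, every measured gene of the other class II genes, Ezh2, Cd8a, and the 5 nearest genes to Cd74, H2-Aa and Ciita. The values of 2 markers are not reported here on their own. Other genes were named after their values were seen, as list members at low counts or neighbours. Positions and exon lengths come from GENCODE M21 and promoter windows from RefSeq (GRCm38.p6). The precision is set by library totals of 17215483 to 31206228 reads, and for members at a few CPM by the summed reads given.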

Additional observations from a re-analysis of the deposited data

Results flagged for a closer look

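In library 6 the H2-DO genes stood apart from the other libraries. The lowest H2-Oa value in EZH2i, 29.9 CPM in library 6, was far below the next at 67.6 CPM, and the lowest in DMSO, 30.5 CPM, was also in library 6, with the next at 52.2 CPM. For H2-Ob the lowest EZH2i value was again in library 6, at 4.46 CPM, with the next at 9.97 CPM. In each case the gap to the nearest library, divided by the range of the group, was above Dixon's limit for 6 samples. The 10 members gave 20 groups, and chance marks about 1 group in 20. Without both libraries numbered 6 the log2 fold change was 0.32 for H2-Oa and -0.14 for H2-Ob. What sets library 6 apart was not tested.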

How the results depend on the processing

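The 7 members called higher were counted as 7 under each alternative, except 8 (H2-Oa added) with the replicate block, without EZH2i library 6 and without both libraries numbered 6. Of 180 member values, 173 kept direction and call, 3 (H2-Oa) gained a call and 4 changed sign. The sign changes were all of H2-DMa, at -0.001 without EZH2i library 1, -0.029 without DMSO library 4, -0.043 without DMSO library 6 and -0.029 without both libraries numbered 6. Leaving out 1 library at a time gave -0.043 to 0.066 for H2-DMa, 2.24 to 2.60 for H2-Aa, 0.49 to 0.61 for H2-DMb2 and 1.86 to 2.15 for Ciita.

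The counts over all tested genes also changed with the processing. The members were chosen with this contrast known, so the steadiness of their calls is not compared with these counts. Genes called numbered 2266, and 5741 with the replicate block, 5270 without both libraries numbered 6 and 1732 to 4079 with 1 library left out, the highest without EZH2i library 6. Higher genes numbered 1557, 2892 with the block and 2815 without both libraries numbered 6. Lower genes numbered 709, 2849 with the block, 2455 without both, 1125 with DESeq2, 347 (beside 1800 higher) with upper-quartile scaling and 435 to 1817 with 1 library left out. Called genes of the lists and markers numbered 22, 51 with the block, 47 without both and 16 to 36 with 1 library left out. Of 468 values of 26 other named genes, 48 lost a call, 19 gained one and 0 changed sign. The cause of these shifts was not tested. Members at low reads, such as H2-Eb1 and Ciita in DMSO, are limited by depth.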

Other observations

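Beyond H2-Eb1, the butyrophilin-like gene cluster lies within 300 kb of H2-Ab1, and its values are given here, chosen after they were seen. Butyrophilin-like proteins are relatives of the B7 costimulatory family. Btnl5-ps, a pseudogene by its symbol, had 3.88 ± 0.309 CPM in EZH2i and 0.364 ± 0.232 CPM in DMSO (SD, n = 6 each), with no overlap, a log2 fold change of 3.42 and an adjusted p of 7.53e-06 in edgeR's quasi-likelihood test. Btnl6 had 104 reads in all EZH2i libraries together and 8 in all DMSO libraries, and Btnl4 had 76 and 12. BC051142, which is not butyrophilin-like by its symbol, lies between Btnl1 and Btnl4 and had 45 and 6. All of these were too low to be tested. Btnl2, the member of the cluster nearest to H2-Eb1, had 28 reads in EZH2i and 23 in DMSO, and Btnl1 had 0 in all 12 libraries. Reads of the butyrophilin-like genes, as close relatives, may be shared between them.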
